A study of Mus musculus with 4 samples.

Results

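The genes described here encode nuclear subunits of respiratory complexes II, III, IV and V. They were found by symbol among array rows that the platform annotation pairs with exactly 1 gene, as Sdha to Sdhd (complex II), Uqcr genes and Cyc1 (complex III), Cox4 to Cox8 genes (complex IV) and Atp5 genes (complex V, the ATP synthase). The rule found 48 of 22180 genes, with 4 in complex II, 9 in complex III, 17 in complex IV and 18 in complex V. Of these, 2 are pseudogenes that share the symbols, Uqcrh-ps1 and Atp5c1-ps. Whole-transcript arrays measured RNA of Thy1+ LSK bone marrow cells, a sorted fraction enriched for haematopoietic stem cells. The samples were 2 arrays of Nol3-/- mice that the labels mark MPN (taken as myeloproliferative neoplasm) and 2 arrays of Nol3+/+ mice, replicates 1 and 2 of each. All 4 held RNA of uncultured cells from untreated C57BL/6 mice aged 11 to 18 months. The labels say neither how many animals stand behind an array nor how Nol3 was deleted. The p-values therefore measure only the spread between these arrays.

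The respiratory chain moves electrons from food-derived carriers to oxygen and uses the energy to pump protons across the inner mitochondrial membrane. Complex II passes electrons from succinate to ubiquinone, complex III passes them from ubiquinol to cytochrome c, and complex IV hands them to oxygen, while complex V lets protons flow back to make ATP. Quiescent haematopoietic stem cells are known for leaning on glycolysis, and respiration grows in weight as they differentiate. Several subunits of complexes IV and V come as isoforms from separate genes, some of them restricted to heart, skeletal muscle, lung or testis in mammals.

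Many promoters of such genes carry sites for the factors NRF1 and GABP, an ETS family protein, so the promoter windows of members that read higher in both Nol3-/- MPN arrays are shown first. A window from 250 bases before the gene start to 50 after it was found for 35 of the 48 members in RefSeq tables of build GRCm38.p6 (38 windows, some genes having several). The 4 shown belong to Atp5g2, Cox6b1, Cox8a and Atp5b, cover chr15:102671028-102671297 (minus strand), chr7:30626095-30626364 (minus strand), chr19:7217597-7217866 (minus strand) and chr10:128083057-128083326 (plus strand), and run 5′ to 3′ up to base 20 after the start. Capitals mark exact matches on either strand to the NRF1 motif (GCGCA, any 1 base, then GCGC) or the ETS motif (CCGGAAG). Atp5g2 is shown for its NRF1 match, Cox6b1 and Cox8a for their ETS matches, and Atp5b as a member higher in both arrays with neither.
Atp5g2: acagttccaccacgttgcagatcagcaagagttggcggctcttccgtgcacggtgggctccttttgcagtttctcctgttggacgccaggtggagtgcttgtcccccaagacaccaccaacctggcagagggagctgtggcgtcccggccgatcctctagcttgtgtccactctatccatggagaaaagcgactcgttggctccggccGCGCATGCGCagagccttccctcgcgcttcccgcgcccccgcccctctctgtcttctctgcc
Cox6b1: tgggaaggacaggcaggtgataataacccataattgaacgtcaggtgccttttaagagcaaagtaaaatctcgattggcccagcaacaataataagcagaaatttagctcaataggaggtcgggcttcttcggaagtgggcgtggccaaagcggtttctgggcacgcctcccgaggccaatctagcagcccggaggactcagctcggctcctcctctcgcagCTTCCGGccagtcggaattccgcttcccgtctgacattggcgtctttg
Cox8a: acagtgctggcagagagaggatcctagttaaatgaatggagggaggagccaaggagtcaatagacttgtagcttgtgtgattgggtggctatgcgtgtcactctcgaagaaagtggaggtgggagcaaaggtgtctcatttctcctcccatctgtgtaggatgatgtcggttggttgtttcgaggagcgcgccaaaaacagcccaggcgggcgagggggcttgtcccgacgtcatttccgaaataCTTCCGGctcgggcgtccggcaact
Atp5b: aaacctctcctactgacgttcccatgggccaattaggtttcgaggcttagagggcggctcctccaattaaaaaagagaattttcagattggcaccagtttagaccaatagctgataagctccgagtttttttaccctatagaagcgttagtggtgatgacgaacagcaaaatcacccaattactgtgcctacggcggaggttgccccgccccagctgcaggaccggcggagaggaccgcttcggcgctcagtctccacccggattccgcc

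The NRF1 letters stood in 10 of the 38 member windows (26.3%), against 4.60% of all 32851 promoter windows. The ETS letters stood in 13 member windows (34.2%), against 8.86% of all windows. A YY1 motif (AAGATGG directly followed by CGG), searched on both strands like the others, was matched in 1 member window, that of Atp5j, against 0.852% of all windows. Member windows held a median of 19 CG pairs and all windows a median of 7, so the shares were also taken over windows with at least 15 CG pairs. There the NRF1 letters stood in 34.5% of 29 member windows against 12.0% of 11378 windows, and the ETS letters in 41.4% against 18.9%. The NRF1 and ETS letters occurred together in Sdhd, Cox6a1, Atp5h and Atp5k. The median difference between the groups was 0.15 log2 units for the 10 tested members with the NRF1 letters and 0.21 for the 22 without, and 0.22 for the 13 with the ETS letters and 0.09 for the 19 without. These medians leave out the tested members without a window, among them Cox4i1, the member with the largest difference, and Sdhc, Uqcrb and Cox4i2. They are descriptions, and a match is letters in a window, not a bound site.

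The deposited values were taken as log2 signals, a scale read from the values, and signals are compared within a gene only. Members whose mean over the 4 arrays lay under 4.835, the 25th percentile of all genes, were set apart as dim. A signal there may not stand clear of background, which was not measured here. A dim row does not show that a gene is silent. That left 43 of the 48 members for testing among 16635 genes. The dim members were Cox7b2, Cox7c, Cox8c, Atp5j2 and Uqcrh-ps1, with signals between 3.70 and 4.67. Array medians over all rows lay between 5.35 and 5.39. Pearson correlation across the genes tested, which are not independent replicates, was 0.949 between the Nol3-/- MPN arrays, 0.911 between the Nol3+/+ arrays, and 0.899 and 0.908 between the Nol3-/- MPN arrays and Nol3+/+ replicate 1, against 0.929 and 0.945 with Nol3+/+ replicate 2. Nol3 itself read 5.38 and 5.50 in the Nol3-/- MPN arrays, against 5.31 and 5.52 in the Nol3+/+ arrays (limma adjusted p = 0.995), and since the labels do not give the deleted part, this row does not check the genotype. The sort gene Kit read 8.38 and 7.39 in Nol3-/- MPN, against 8.07 and 8.10 in Nol3+/+, Thy1 lay near the dim limit in all arrays, and Sca-1 (Ly6a) was not analysed here. Xist read 10.88 and 10.69 in Nol3-/- MPN, against 5.43 and 5.28 in Nol3+/+, and the Y-linked Eif2s3y read 4.24 and 3.97 against 6.53 and 7.17. Genotype, the disease label and sex-linked signal thus divide the arrays the same way and cannot be told apart. In bulk RNA, fewer cells of a type and less RNA per cell cannot be told apart either.

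**Figure D1:**
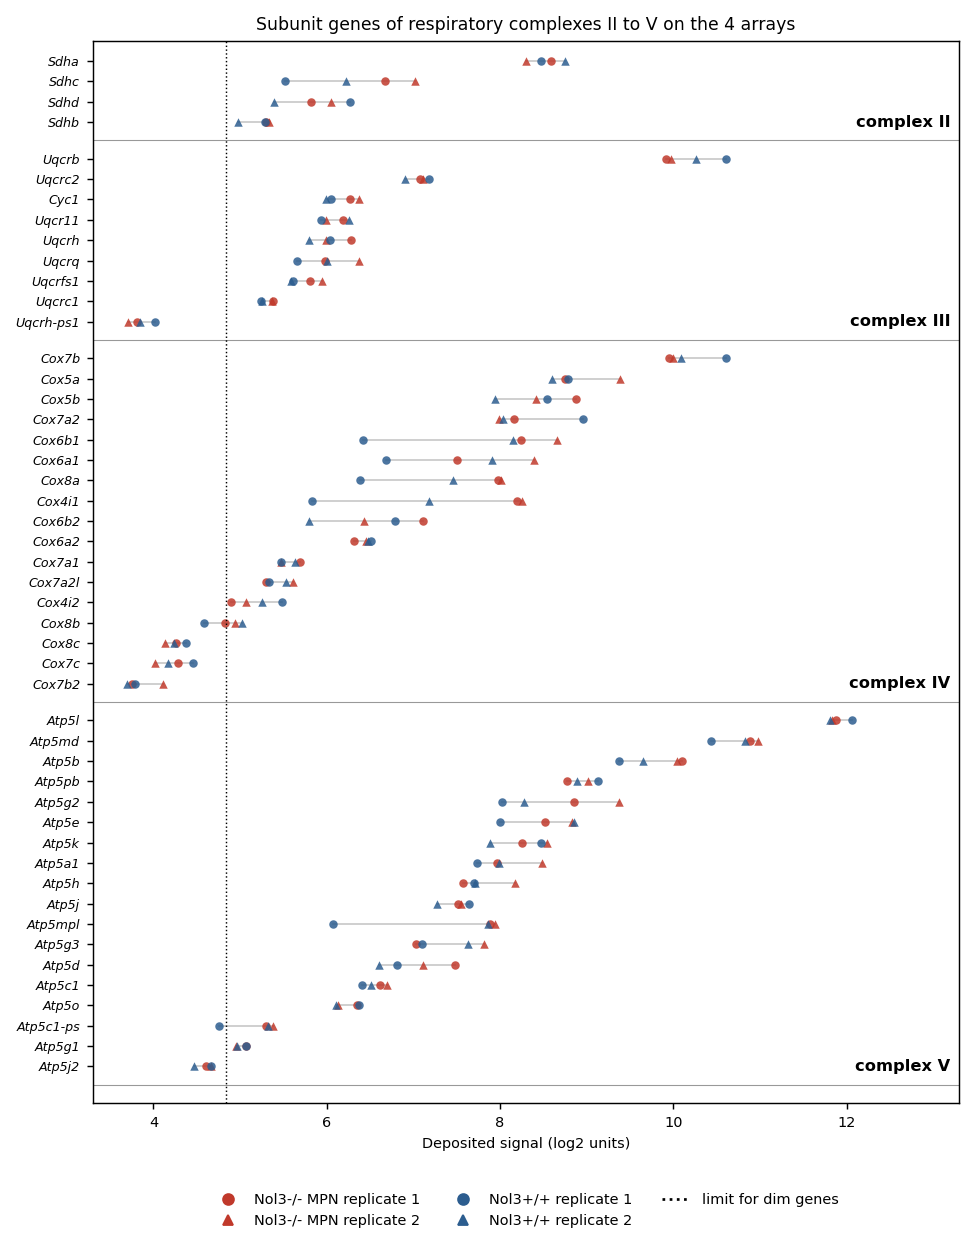
Deposited signal (log2 units, horizontal axis) of each of the 48 members on the 4 arrays, ordered within each complex by mean signal. Red marks are Nol3-/- MPN arrays, blue marks Nol3+/+ arrays, and the dotted line is the limit for dim genes at 4.835. The widest gaps in complex IV are those of Cox6b1 and Cox4i1, where Nol3+/+ replicate 1 lies far to the left.

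No member passed the adjusted threshold of 0.05 (limma with Benjamini-Hochberg adjustment over 16635 genes), against 4 genes in all (0.024%), and the smallest adjusted p of a member was 0.841. As a description, 32 of the 43 tested members (74.4%) had a positive difference of Nol3-/- MPN minus Nol3+/+, against 51.7% of all genes tested. The median difference was 0.19 log2 units over the members and 0.01 over all genes. Of the 43, 14 (32.6%) had both Nol3-/- MPN values above both Nol3+/+ values, against 19.7% of all genes, and 4 (9.30%) had both below, against 15.9% of all genes. An unadjusted limma p under 0.05 with a higher value in Nol3-/- MPN was reached by 5 members (11.6%), namely Sdhc, Cox4i1, Cox8a, Atp5b and Atp5g2, against 3.73% of all genes. It was reached with a lower value by 2 members (4.65%), Uqcrb and Cox4i2, against 2.07%. At least 2-fold at that p were Cox4i1 and Cox8a, both higher, against 0.631% of all genes. These counts changed when single arrays were left out. Each such fit takes its residual spread from the group that keeps 2 arrays, so the counts follow that spread too. Without Nol3-/- MPN replicate 1 the higher and lower members at that p numbered 2 and 0, against 2.51% and 0.932% of all genes. Without Nol3-/- MPN replicate 2 they numbered 0 and 0, against 3.14% and 1.78%. Without Nol3+/+ replicate 1 they numbered 4 and 0, against 2.77% and 2.81%, and without Nol3+/+ replicate 2 they numbered 10 and 4, against 6.25% and 5.14%. Of 28 tested complex I genes, 21 had a positive difference, and their median was 0.29. Differences between the complexes were not tested.

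**Figure D2:**
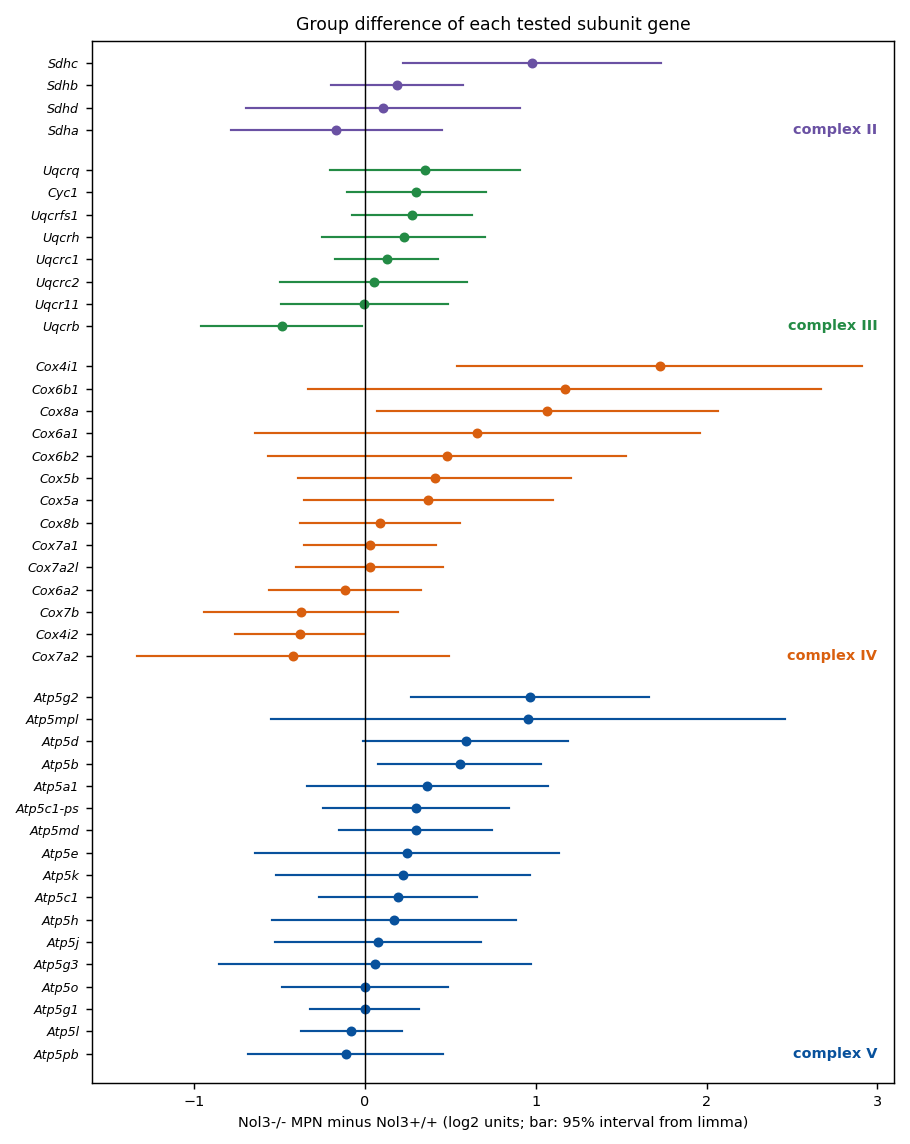
Difference of Nol3-/- MPN minus Nol3+/+ (log2 units, horizontal axis) for the 43 tested members, with 95% intervals from limma as bars, ordered by size within each complex. Most points lie right of 0, most intervals cross it, and the widest intervals belong to Cox6b1, Atp5mpl, Cox6a1 and Cox4i1.

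Of the 4 complex II genes, 3 had a positive difference and 1 a negative one, and differences among them were not tested. Sdhc, a membrane anchor subunit that helps to bind ubiquinone, read 6.68 and 7.02 in the Nol3-/- MPN arrays, against 5.52 and 6.23 in the Nol3+/+ arrays. Both Nol3-/- MPN values lay above both Nol3+/+ values, by at least 0.45 log2 units, and the difference was 0.98 (SE 0.30, 95% interval 0.22 to 1.73, limma unadjusted p = 0.020, adjusted p = 0.841). Without Nol3+/+ replicate 1 it was 0.62. Sdhd, the other anchor subunit, read 5.81 and 6.05 in Nol3-/- MPN, against 6.27 and 5.39 in Nol3+/+. Here the Nol3+/+ arrays enclosed the others, and the difference of 0.10 turned to -0.34 without Nol3+/+ replicate 2. Sdha, the flavoprotein that oxidises succinate, read 8.59 and 8.30 in Nol3-/- MPN, against 8.47 and 8.75 in Nol3+/+, a difference of -0.17 with an interval from -0.79 to 0.45. It was -0.32 and -0.02 without Nol3-/- MPN replicates 1 and 2, and -0.31 and -0.03 without Nol3+/+ replicates 1 and 2. Sdhb, the iron-sulphur subunit that links Sdha to the anchors, read 5.30 and 5.34 in Nol3-/- MPN, against 5.28 and 4.98 in Nol3+/+, and the groups were separated by only 0.01. The complex II median difference of 0.15 over 4 genes was 0.44 without Nol3+/+ replicate 1 and 0.00 without Nol3+/+ replicate 2.

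Complex III had small differences, mostly positive. Cyc1, the cytochrome c1 that passes electrons to cytochrome c, read 6.27 and 6.37 in Nol3-/- MPN, against 6.05 and 5.99 in Nol3+/+, a difference of 0.30 (SE 0.16, limma adjusted p = 0.841). Uqcrfs1, the Rieske iron-sulphur protein, read 5.81 and 5.94 in Nol3-/- MPN, against 5.61 and 5.59 in Nol3+/+, a difference of 0.27 with an SE of 0.14. In both genes the groups did not overlap, and the difference without any 1 array stayed between 0.25 and 0.35 for Cyc1 and between 0.21 and 0.34 for Uqcrfs1. The core proteins of the matrix side differed little. Uqcrc1 read 5.37 and 5.37 in Nol3-/- MPN, against 5.24 and 5.25 in Nol3+/+, a difference of 0.13 that is small but separated by 0.12. Uqcrc2 read 7.07 and 7.11 in Nol3-/- MPN, against 7.18 and 6.90 in Nol3+/+, which overlap.

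Among the small subunits of complex III, Uqcrb, which borders the ubiquinone pocket, stood the other way. It read 9.92 and 9.97 in Nol3-/- MPN, against 10.60 and 10.26 in Nol3+/+, a difference of -0.49 (SE 0.19, 95% interval -0.96 to -0.02, limma unadjusted p = 0.044, adjusted p = 0.841). Both Nol3-/- MPN values lay below both Nol3+/+ values, and the difference without any 1 array stayed between -0.66 and -0.32. A row that Uqcrb shares with the predicted gene Gm10767 read 5.49 and 5.37 in Nol3-/- MPN, against 5.41 and 5.96 in Nol3+/+. Its groups overlapped, with a difference of -0.25. Uqcrq, another small subunit, read 5.98 and 6.38 in Nol3-/- MPN, against 5.66 and 6.00 in Nol3+/+, which overlap by a narrow margin. Uqcrh, the hinge protein, read 6.28 and 6.00 in Nol3-/- MPN, against 6.03 and 5.79 in Nol3+/+, and Uqcr11 differed by -0.00. The complex III median was 0.18 over 8 tested genes, of which 3 were higher (37.5%, against 19.7% of all genes) and 1 was lower (12.5%, against 15.9%) without overlap.

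Of the 3 members with a difference above 1 log2 unit, all belong to complex IV, and each had a gap above 1 log2 unit between the Nol3+/+ arrays. Cox4i1, the general isoform of subunit 4, through which ATP inhibits the enzyme, read 8.20 and 8.25 in Nol3-/- MPN, against 5.83 and 7.18 in Nol3+/+. The groups were separated by 1.02, while the Nol3+/+ arrays differed from each other by 1.35. The difference was 1.73 (SE 0.47, 95% interval 0.54 to 2.91, a 3.31-fold ratio, limma unadjusted p = 0.013, adjusted p = 0.841). It was 1.05 without Nol3+/+ replicate 1 and 2.40 without Nol3+/+ replicate 2. Cox4i2, the isoform of the same subunit that is high in lung and takes part in oxygen sensing, read 4.90 and 5.07 in Nol3-/- MPN, against 5.48 and 5.25 in Nol3+/+. Its difference of -0.38, with an interval from -0.76 to -0.00, was opposite in sign to that of Cox4i1 (limma unadjusted p = 0.049, adjusted p = 0.841), at signals not far above the dim limit.

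The subunit 8 genes were read in the same way, general isoform first. Cox8a, the isoform of most tissues, read 7.98 and 8.01 in Nol3-/- MPN, against 6.39 and 7.46 in Nol3+/+, a difference of 1.07 (SE 0.39, 95% interval 0.07 to 2.07, limma unadjusted p = 0.040, adjusted p = 0.841). The groups were separated by 0.52, and the difference was 0.53 without Nol3+/+ replicate 1. Cox8b, the heart and skeletal muscle isoform in mouse, read 4.82 and 4.95 in Nol3-/- MPN, against 4.58 and 5.02 in Nol3+/+, which enclose them. The testis isoform Cox8c read 4.26 and 4.14 in Nol3-/- MPN, against 4.38 and 4.24 in Nol3+/+, below the dim limit throughout.

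The differences of the general isoforms of subunits 6a and 6b depended on single arrays. Cox6b1, a general subunit of the intermembrane face near the cytochrome c site, read 8.24 and 8.66 in Nol3-/- MPN, against 6.42 and 8.15 in Nol3+/+. The groups did not overlap, yet Nol3+/+ replicate 2 lay only 0.10 below the nearer Nol3-/- MPN array. The difference of 1.17 (SE 0.59, limma adjusted p = 0.841) was 0.30 without Nol3+/+ replicate 1 and 2.03 without Nol3+/+ replicate 2. Cox6a1, the general isoform of subunit 6a, read 7.51 and 8.39 in Nol3-/- MPN, against 6.68 and 7.90 in Nol3+/+, which overlap. Its difference of 0.66 moved with every array left out, to 1.10 without Nol3-/- MPN replicate 1, 0.21 without Nol3-/- MPN replicate 2, 0.05 without Nol3+/+ replicate 1 and 1.27 without Nol3+/+ replicate 2. The heart and muscle isoform Cox6a2 read 6.31 and 6.45 in Nol3-/- MPN, against 6.51 and 6.48 in Nol3+/+, a difference of -0.12 with an interval from -0.56 to 0.33. The testis isoform Cox6b2 read 7.11 and 6.43 in Nol3-/- MPN, against 6.78 and 5.79 in Nol3+/+, and both groups had the higher value in replicate 1.

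The subunit 7 genes of complex IV gave no common direction. Cox7a2, the general isoform of subunit 7a, read 8.17 and 7.99 in Nol3-/- MPN, against 8.96 and 8.04 in Nol3+/+, a difference of -0.42 that was 0.04 without Nol3+/+ replicate 1. Cox7b, an X-linked gene of a small membrane subunit, read 9.95 and 10.00 in Nol3-/- MPN, against 10.61 and 10.08 in Nol3+/+, a difference of -0.37. Cox7b has another row with the opposite sign, which read 5.27 and 5.39 in Nol3-/- MPN, against 5.02 and 4.87 in Nol3+/+, so its direction is unsettled. The testis isoform Cox7b2 was dim, at 3.75 and 4.11 in Nol3-/- MPN, against 3.79 and 3.70 in Nol3+/+. Cox7a2l and the muscle isoform Cox7a1 differed by 0.03 each, with overlapping groups. Of the subunits with no isoform among the members, Cox5a read 8.74 and 9.38 in Nol3-/- MPN, against 8.79 and 8.60 in Nol3+/+, and Cox5b read 8.88 and 8.41 against 8.54 and 7.94. Both overlap between the groups, and they differed by 0.37 and 0.41. The Cox5a difference was 0.69 without Nol3-/- MPN replicate 1 and 0.05 without Nol3-/- MPN replicate 2. Another row of Cox5b read 6.74 and 6.41 in Nol3-/- MPN, against 6.93 and 6.29 in Nol3+/+, and differed by -0.04. The complex IV median was 0.23 over 14 tested genes, and 0.04 without Nol3+/+ replicate 1. Without overlap, 3 were higher and 3 lower, 21.4% each way and near the 19.7% and 15.9% of all genes. The complex IV median was 0.37 without the X-linked Cox7b and 0.09 with the dim members kept.

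Complex V is a rotary enzyme, with a catalytic head on a turning central stalk and a membrane rotor. Atp5b, the beta subunit that makes ATP, read 10.09 and 10.04 in Nol3-/- MPN, against 9.38 and 9.65 in Nol3+/+. The groups were separated by 0.39, and the difference was 0.55 (SE 0.19, 95% interval 0.07 to 1.03, limma unadjusted p = 0.031, adjusted p = 0.841). It stayed between 0.42 and 0.69 without any 1 array. Atp5a1, the alpha subunit that alternates with beta in the head, read 7.97 and 8.49 in Nol3-/- MPN, against 7.74 and 7.98 in Nol3+/+, a difference of 0.36 with overlapping groups. In the central stalk, Atp5d (delta) read 7.48 and 7.11 in Nol3-/- MPN, against 6.81 and 6.60 in Nol3+/+, a difference of 0.59 (SE 0.24, 95% interval -0.01 to 1.19, limma adjusted p = 0.841). Its groups did not overlap, but another row of Atp5d, with group means of 5.29 in Nol3-/- MPN and 5.26 in Nol3+/+, differed by only 0.03. Atp5c1 (gamma, the rotating shaft) read 6.61 and 6.70 in Nol3-/- MPN, against 6.41 and 6.51 in Nol3+/+, and Atp5e (epsilon) differed by 0.25 on its brighter row and 0.32 on its other row, both with overlapping groups.

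The c subunit of the membrane rotor is encoded by 3 genes, whose products carry the same mature protein behind different import signals. Atp5g2 read 8.85 and 9.38 in Nol3-/- MPN, against 8.02 and 8.28 in Nol3+/+, and both Nol3-/- MPN arrays were higher, by at least 0.57. The difference was 0.97 (SE 0.27, 95% interval 0.27 to 1.66, limma unadjusted p = 0.016, adjusted p = 0.841), and 0.70 to 1.23 without any 1 array. Its other row, at 8.73 and 8.98 in Nol3-/- MPN, against 8.17 and 8.27 in Nol3+/+, had the same order and a difference of 0.63. Atp5g1 read 5.07 and 4.95 in Nol3-/- MPN, against 5.06 and 4.97 in Nol3+/+, a difference of -0.00 with an interval from -0.32 to 0.32. Atp5g3 read 7.03 and 7.82 in Nol3-/- MPN, against 7.10 and 7.63 in Nol3+/+, so replicate 2 was the higher array in both groups. The difference among the 3 genes was not tested.

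The peripheral stalk, which holds the head still, showed no separation between the groups. Atp5pb, Atp5h, Atp5j and Atp5o differed by -0.11, 0.17, 0.08 and -0.00, and the groups overlapped in all 4. Another row of Atp5h, near the dim limit, read 4.62 and 4.17 in Nol3-/- MPN, against 4.55 and 5.20 in Nol3+/+. Among the small membrane subunits that shape the dimer, Atp5l read 11.88 and 11.83 in Nol3-/- MPN, against 12.06 and 11.81 in Nol3+/+, a difference of -0.08. Atp5md, also named Usmg5 or DAPIT, read 10.88 and 10.98 in Nol3-/- MPN, against 10.44 and 10.83 in Nol3+/+, and Atp5k overlapped. Atp5mpl read 7.89 and 7.94 in Nol3-/- MPN, against 6.07 and 7.86 in Nol3+/+. Its difference of 0.95 (limma adjusted p = 0.863) was 0.06 without Nol3+/+ replicate 1, the one low array. The complex V median was 0.22 over 17 tested genes, of which 6 were higher (35.3%, against 19.7% of all genes) and 0 lower (against 15.9%) without overlap. The median was 0.21 when the pseudogene Atp5c1-ps was left out.

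Part of the spread came from Nol3+/+ replicate 1. Of the 43 tested members, 5 differed by at least 1 log2 unit between the Nol3+/+ arrays, namely Cox4i1, Cox6a1, Cox6b1, Cox8a and Atp5mpl, and in all 5 replicate 1 was the lower. That is 11.6% of the members, against 2.56% of all genes tested, and 0 members differed as much the other way, against 1.53% of all genes. Between the Nol3-/- MPN arrays 0 members differed by 1 log2 unit. Nol3+/+ replicate 1 was the lowest array for 17 members (39.5%, against 29.5% of all genes). It was the highest for 11 (25.6%, against 30.1% of all genes), so it was not low in every member. Nol3-/- MPN replicate 2 was the highest array for 20 members (46.5%), against 27.9% of all genes. Over all 43 members the median deviation from the gene's own mean was 0.06 and 0.14 in the Nol3-/- MPN arrays, against -0.09 and -0.07 in the Nol3+/+ arrays. The median difference of the members was 0.22 without Nol3-/- MPN replicate 1, 0.11 without Nol3-/- MPN replicate 2, 0.14 without Nol3+/+ replicate 1 and 0.16 without Nol3+/+ replicate 2. The part of array quality in these gaps was not tested.

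**Figure D3:**
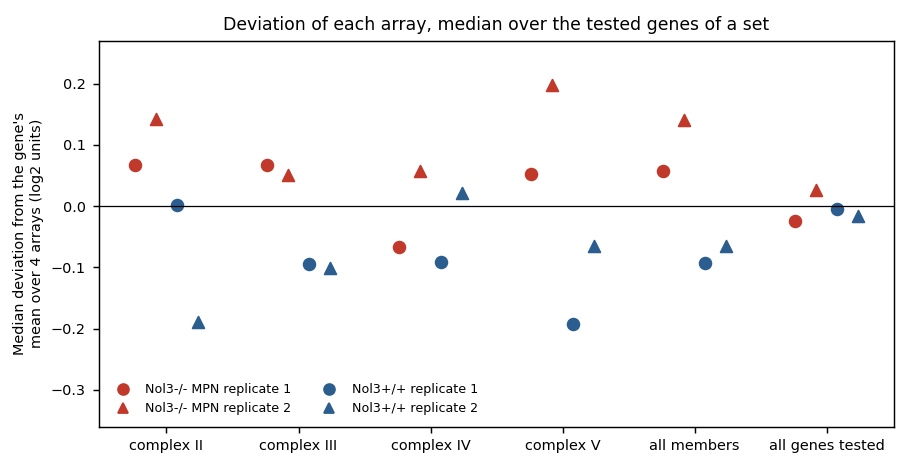
Median deviation of each array (log2 units, vertical axis) from the gene's mean over the 4 arrays, over the tested members of each complex, all members and all genes tested. Red marks are Nol3-/- MPN arrays and blue marks Nol3+/+ arrays. The red marks lie above the blue ones in complexes II, III and V and over all members, but not in complex IV, where Nol3-/- MPN replicate 1 lies below Nol3+/+ replicate 2.

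**Figure D4:**
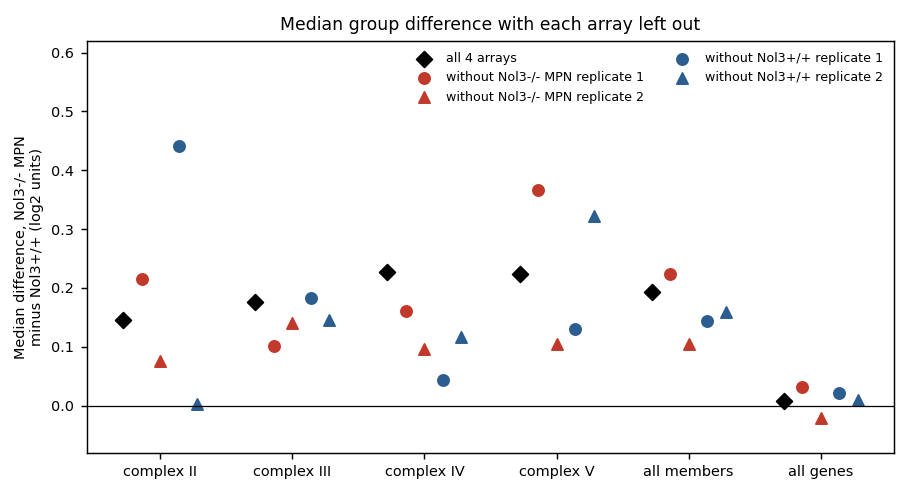
Median difference of Nol3-/- MPN minus Nol3+/+ (log2 units, vertical axis) over the tested members of each complex, all members and all genes tested, with all 4 arrays (black) and with each array left out. The median of complex II runs from 0.00 to 0.44 and that of complex IV drops to 0.04 without Nol3+/+ replicate 1, while all members stay between 0.11 and 0.22.

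Of 30 tested assembly factors, 18 had a positive and 12 a negative difference, with a median of 0.06, and 3 higher and 1 lower reached an unadjusted limma p under 0.05, against 3.73% and 2.07% of all genes. Fmc1, an ATP synthase assembly factor, read 5.29 and 5.50 in Nol3-/- MPN, against 4.41 and 4.61 in Nol3+/+, one of the 3 higher. Its Nol3+/+ signals lay under the dim limit, so no difference is given. Coa4, a complex IV assembly factor, differed by 0.53, and Sdhaf2, which attaches the flavin to Sdha, by 0.39, both without overlap (limma adjusted p = 0.841 each). Lyrm7, a chaperone of the Rieske protein, was the 1 lower gene, at -0.47. Sdhaf4, named after its values were seen, read 8.26 and 8.27 in Nol3-/- MPN, against 4.98 and 7.82 in Nol3+/+, the same single low array as in Cox6b1 and Atp5mpl. Coa3, a dim assembly factor also named after its values were seen, went the other way, at 5.43 and 4.34 in Nol3+/+.

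The mobile carriers and the regulators gave no common direction. Of 14 tested electron carrier and ubiquinone synthesis genes, 9 were positive, with a median of 0.04. Etfa, a subunit of the electron transfer flavoprotein, read 7.78 and 8.21 in Nol3-/- MPN, against 6.63 and 7.41 in Nol3+/+ (difference 0.97, limma adjusted p = 0.841), while Etfb and the ubiquinone synthesis gene Coq9 differed by 0.52 and -0.32. Cycs, cytochrome c itself and named after its values were seen, read 10.81 and 10.96 in Nol3-/- MPN, against 9.77 and 10.83 in Nol3+/+, with Nol3+/+ replicate 1 the low array. Of 4 tested accessory genes of complexes IV and V outside the symbols used, 4 were positive, with a median of 0.26, and the groups overlapped in each. Among them Higd1a, Higd2a and the ATP synthase inhibitor gene Atpif1 differed by 0.43, 0.42 and 0.10. The carriers that bring phosphate and ADP to ATP synthase had a median of 0.00 over 4 genes, with Slc25a4 at -0.18, Slc25a3 at 0.12 and Slc25a31 at -0.06. Of 11 tested regulators of respiratory genes, 6 were positive with a median of 0.01, and Gabpa, Tfam and Polrmt differed by 0.39, 0.15 and -0.19. Of these carriers, accessory genes and regulators, 1 (Etfa, higher) reached an unadjusted limma p under 0.05, against 3.73% higher and 2.07% lower of all genes. Genes used as a gauge of mitochondrial content had 9 of 12 positive and a median of 0.19, with Timm44 at 0.52, Vdac3 at -0.53 and Timm23 at 0.69. Of the 12, 0 reached that p, against the same shares of all genes. Between the Nol3+/+ arrays Timm23 went the other way from Cycs, at 8.46 in replicate 1 and 7.36 in replicate 2. Tfb1m, a regulator named after its values were seen, did so too, at 8.47 and 5.90.

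Markers of other blood cells were read beside these values. Of 10 tested granulocyte and monocyte markers 7 had a negative and 3 a positive difference, and the mean log2 signal of all 13 was 6.07 and 6.09 in Nol3-/- MPN, against 6.17 and 6.48 in Nol3+/+. S100a9 and S100a8 differed by -0.83 and -0.86, while the 3 positive markers, Mpo, Lyz2 and Elane, differed by 0.48, 0.24 and 0.07. Ly6c1, Csf1r and Itgam lay under the dim limit. The summed linear signal of this list was 1376 and 1483 in Nol3-/- MPN, against 1469 and 2010 in Nol3+/+. Of 4 tested B cell markers 4 had a positive difference, with Cd79b at 0.50, and their mean with the dim Ms4a1 was 5.46 and 5.56 in Nol3-/- MPN, against 5.29 and 5.31 in Nol3+/+. The summed linear signal of the B cell list was 239 and 254 in Nol3-/- MPN, against 209 in each Nol3+/+ array. Medians of the tested erythroid, megakaryocyte, and T and NK cell markers differed by 0.00, -0.01 and -0.02 between the groups, and that of stromal markers by -0.13. Their part in the members' differences was not tested.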

How the data were processed

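Per the labels' protocols, a micro-scale column kit gave the RNA, which was amplified by single-primer isothermal amplification, biotinylated and hybridised to whole-transcript arrays from Affymetrix. The submitters' processing notes name Transcriptome Analysis Console and Expression Console, without versions. The normalization step is not given in the sources used here. Normalized values of 41345 rows on 4 arrays were deposited by the authors, taken here as log2 signals from their range of 2.84 to 13.5, since the base is not stated. Array number limits the precision.

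Of the rows, 23521 had 1 gene symbol and stood for 22180 genes; the row with the highest mean was used for a gene with several, as for 6 members. Genes with a mean under the 25th percentile were left out. Differences between the groups come from limma 3.58.1 under R 4.3.3 (lmFit and eBayes, variance trend, 2 residual and 3.19 prior degrees of freedom) and Benjamini-Hochberg adjustment over 16635 genes; the fit was tested on simulated data. SE is limma's standard error. Genes given values in full followed a rule: all complex II members, in each other complex the 5 smallest p and 2 brightest, all isoform families, and the 3 smallest p of each pathway list. Other members and markers serve to complete a group. Members and lists were chosen with earlier results of these data known. Subunit genes can have processed pseudogenes of near-identical sequence, so single rows are uncertain.

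The same-numbered arrays of the groups deviated together with a correlation of 0.05 across all genes tested (0.40 across the 43 members), so numbers were not taken as pairs. Alternatives covered normalization, variance model, array weights, the dim limit, the row rule, sex-linked genes, the replicate block and each array left out.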

Additional observations from a re-analysis of the deposited data

How the results depend on the processing

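No member was called under any of the 16 alternatives run. The 4 genes called over all genes became 0 with ordinary variance, without X and Y genes, with the replicate block and with crossed replicate numbers as a block, an alternative chosen after seeing the data, and 0 to 39 with each array left out. The count of genes with an unadjusted p under 0.05 and a 2-fold or larger difference, 169, became 53 with ordinary variance and 194 to 538 with each array left out. The 5 higher members at an unadjusted p under 0.05 became 2 with ordinary variance and 0 to 10 with each array left out, and the 2 lower ones became 0 with ordinary variance, without a dim limit and with the replicate block, 1 with quantile normalization, without a variance trend, with the stricter dim limit and with crossed numbers, and 0 to 4 with each array left out. The replicate block moved no other count of members by over 1.5 times; 6 were then higher. The complex III median was 0.13 without a dim limit, where a pseudogene row enters. With each array left out the medians ran from 0.0028 to 0.44 in complex II, 0.10 to 0.18 in complex III, 0.04 to 0.16 in complex IV and 0.10 to 0.37 in complex V. That of assembly factors ran from 0.10 to 0.20 and that of electron carriers from 0.0158 to 0.0727, with 0.0865 under the stricter dim limit. Counts of groups without overlap were not run with an array left out, which leaves 1 array on a side.

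Of 492 values of 31 named members under the alternatives, 19 had the opposite sign, from 11 members, among them Cox6b2, Cox7a2 and Cox7b, whose differences were 0.48, -0.42 and -0.37. Atp5g1 differed by 0.0064 and Atp5l by 0.0281 after quantile normalization, Atp5g1 by 0.0021 after centring, and Cox7b by 0.0088 with the mean of its rows. With each array left out the range was -0.0625 to 0.0562 for Atp5g1, -0.34 to 0.45 for Atp5g3, -0.21 to 0.0447 for Atp5l, -0.0851 to 0.14 for Cox7a1, -0.88 to 0.0392 for Cox7a2, -0.13 to 0.19 for Cox7a2l, -0.13 to 0.31 for Cox8b, -0.0119 to 0.98 for Cox6b2, -0.34 to 0.54 for Sdhd and -0.0883 to 0.19 for Uqcrc2. Without a change of sign, the range was -0.32 to -0.02 for Sdha, 0.03 to 0.34 for Sdhb, 0.08 to 0.37 for Uqcrh, 0.15 to 0.55 for Uqcrq, 0.05 to 0.69 for Cox5a, 0.05 to 1.27 for Cox6a1, -0.64 to -0.11 for Cox7b and 0.10 to 0.49 for Atp5md. The cause was not tested. Same-numbered arrays of the groups share only a number, though over the 43 tested members the gap between the Nol3-/- MPN arrays and that between the Nol3+/+ arrays had a Pearson r of 0.40 and a Spearman rho of 0.38 across genes, which are not independent.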

Other observations

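Some subunit genes stand only on rows that the annotation shares with a predicted gene, and so were not counted. A row of Cox6c and Gm6265 read 9.86 and 10.32 in Nol3-/- MPN, against 10.43 and 9.11 in Nol3+/+, and another read 5.80 and 5.80, against 6.07 and 5.55. The row of Uqcr10 and Gm6293 read 5.37 and 4.84 in Nol3-/- MPN, against 5.01 and 5.60 in Nol3+/+. The groups overlapped in all 3 rows.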
